A study of Homo sapiens with 12 samples.

Results

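VCaP-CT cells growing at 0.1 nM testosterone (T) were compared with VCaP-T cells that had been depleted of T, that is, moved from 10 to 0.1 nM T for 48 h, so that both lines were at the same hormone level when their RNA was collected. The comparison took 6 of the 12 RNA-seq libraries of the series, 3 labelled VCaP-CT at 0.1 nM T and 3 labelled VCaP-T at 0.1 nM T for 48 h, chosen by these labels and not by any measured value. VCaP is an established human prostate cancer cell line that carries the TMPRSS2-ERG fusion. VCaP-T was obtained from it in 7 months of culture with 10 nM T, and VCaP-CT was obtained from VCaP-T in 10 months of culture with 0.1 nM T. Both lines had been in culture for 20 months, at passage 84 for VCaP-T and passage 73 for VCaP-CT, in RPMI medium with serum that had been stripped of steroids by charcoal. Each condition is a single derived line, so the adaptation to low T cannot be told apart from any other difference between the lines or their passages. The other 6 libraries (3 of VCaP-T under its usual 10 nM T, 3 of VCaP-CT after 48 h at that dose) entered the same statistical model and served to compare the lines at the higher hormone level.

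Androgens, T and dihydrotestosterone among them, act on prostate cells through a nuclear hormone receptor that binds DNA together with pioneer factors such as FOXA1 and HOXB13. The hormone induces genes of the secretory luminal cell such as KLK3 and represses others. Prostate cancers under androgen deprivation can regain growth while the hormone stays low, commonly with other routes to active androgens, or with a change of lineage. The comparison at equal T asks how far the transcriptome of the line that grows at 0.1 nM T differs from that of the line acutely brought to the same level.

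The 6 libraries held between 30174831 and 40825204 counted fragments (read pairs assigned to a gene). Mitochondrial genes took 7.475 to 7.543% of the counts in VCaP-CT and 9.328 to 9.681% in depleted VCaP-T. Depleted VCaP-T replicate 2 stood apart from the other 2 depleted libraries. Its log2 levels correlated with theirs at 0.9621 and 0.9665 (Pearson's r across genes), whereas every other pair of replicates in the series was at 0.9917 or above, and 12.73% of 13736 genes with a mean of at least 50 normalized counts differed more than 2-fold between it and the mean of the other 2, against at most 1.34% for any other library. The difference followed exon length. In the quintile of genes with the shortest exon length, the median of replicate 2 was 0.57 higher on the log2 scale than the mean of the other 2 depleted libraries, and in the quintile with the longest it was 0.53 lower. With replicate 2 included, the median log2 fold change of VCaP-CT against depleted VCaP-T went from -0.11 in the shortest quintile to 0.14 in the longest. Without it, the median was 0.11 in the shortest quintile and between 0.0047 and 0.016 in the others. Results are therefore given with all libraries and, where it matters, without replicate 2, and what made this library differ was not tested.

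**Figure D1:**
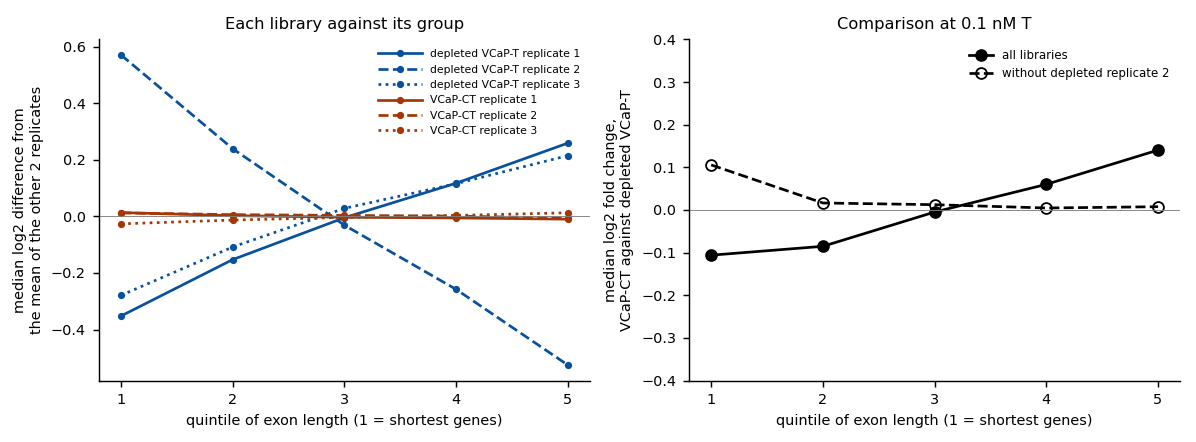
Left, median log2 difference of each library from the mean of the other 2 replicates of its group (y axis), in quintiles of genes by exon length from shortest to longest (x axis), with 1 line per library of depleted VCaP-T (blue) and VCaP-CT (red-brown). Right, median log2 fold change of VCaP-CT against depleted VCaP-T in the same quintiles, with all libraries (filled) and without depleted replicate 2 (open). Depleted replicate 2 runs from 0.57 to -0.53, the VCaP-CT libraries stay close to 0, and the comparison with all libraries runs from -0.11 to 0.14. Without depleted replicate 2 the shortest quintile is at 0.11 and the others lie between 0.0047 and 0.016.

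Nothing in the labels ties the replicates to separate cultures, and the p-values therefore reflect the spread among these libraries only, which may be technical. In bulk RNA, fewer cells of a type and less RNA per cell cannot be told apart. Both lines had the markers of prostate luminal cells with the ERG fusion, with KLK3, KLK2, HOXB13, TMPRSS2, SLC45A3, KRT8, KRT18 and ERG all measured. Some markers of basal cells (TP63, KRT5), fibroblasts (COL1A2, COL3A1, DCN, PDGFRA), endothelium (CDH5, KDR, TEK) and blood cells (PTPRC, CD3E, MS4A1, CD68, HBB) did not pass the filter on low counts. Others did and are described below. They were 10 of 15 listed basal, 6 of 15 fibroblast and smooth muscle, 7 of 12 endothelial and 5 of 16 blood cell markers, LYZ among the last.

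Of 19162 genes tested, 693 were called higher in VCaP-CT (3.62%) and 1664 lower (8.68%), 2357 in all (12.3%). A gene was called where its adjusted p was under 0.01, its log2 fold change was over 1 in size, and the medians of its normalized counts (counts scaled to a common library size) differed by more than 13. Log2 fold changes are of VCaP-CT against depleted VCaP-T and are followed by an approximate standard error (SE). It is the size of the log2 fold change divided by the square root of the test's F statistic, and was not estimated directly. Below, a gene is described as higher or lower where its adjusted p was under 0.01. Without depleted replicate 2, 679 genes were called higher (3.46%) and 1789 lower (9.1%), 12.6% in all, of which 562 and 1513 were among those called with it. By the adjusted p alone, 2495 genes were higher (13%) and 3152 lower (16.4%), 29.5% in all. Without replicate 2 these shares were 23.2%, 24.4% and 47.6%, so that the 5647 genes past this threshold became 9348. Counts of list members below are to be read against these shares. In a fit of the 6 libraries alone, only 2932 of 18369 genes tested passed the adjusted p. List counts from that fit are not given. Where a list's count moved by over 1.5 times without replicate 2, or over the fits that each left out 1 of the other 5 libraries of the comparison, the changed count or the range is given with it. Among the called genes, 700 of the lower and 182 of the higher differed by more than 2 on the log2 scale, and 96 and 26 by more than 5. The median log2 fold change was -1.78 in genes called lower and 1.47 in genes called higher, while over all genes tested it was -0.024. Protein-coding genes made up 1368 of the lower and 459 of the higher calls, and long noncoding RNAs made up 185 and 132. The replicate libraries of the 2 groups did not overlap for 2346 of the 2357 called genes (99.5%), and for 52.3% of all genes tested, 25.9% with VCaP-CT higher and 26.5% with it lower.

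The androgen axis split in VCaP-CT, with far less KLK3, more ERG, and only small differences in KLK2 and FKBP5. KLK3, which encodes prostate-specific antigen and lies on chromosome 19 (50854915 to 50860764 on the plus strand of GRCh38, gene ENSG00000142515.14), was at 36874, 49273 and 36589 in depleted VCaP-T and at 1652, 1659 and 1695 in VCaP-CT. The groups were far apart (log2 fold change -4.62, SE 0.12, adjusted p = 1.25e-10). KLK2, the neighbouring kallikrein and also induced by androgen, was at 174883, 181556 and 171093 in depleted VCaP-T and 207561, 203795 and 203781 in VCaP-CT. The KLK2 groups did not overlap either, but the difference was small and its adjusted p of 0.0225 was over the threshold of 0.01 (log2 fold change 0.22), while without replicate 2 it was 8.14e-06. The KLK2 and KLK3 differences thus had opposite signs in the same libraries.

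TMPRSS2, a luminal protease whose androgen-driven promoter is the one fused to ERG, was lower in VCaP-CT, at 3610.2, 3585 and 3371 against 5749.6, 5442 and 5614 normalized counts (log2 fold change -0.67, SE 0.065, adjusted p = 6.65e-06). ERG, the transcription factor expressed from that fusion, was at 12285, 12478 and 11904 against 7582, 6138 and 7431 and was higher (log2 fold change 0.79, SE 0.085, adjusted p = 1.4e-05). The gene that lends the fusion its promoter and the gene expressed from it therefore differed in opposite directions. FKBP5, an androgen-induced chaperone of steroid receptors, was at 6300.4, 4689 and 6551 in depleted VCaP-T and 5113, 5186 and 5048 in VCaP-CT, and the groups overlapped through replicate 2. With all libraries FKBP5 did not pass (log2 fold change -0.19, adjusted p = 0.169), and without replicate 2 it was lower in VCaP-CT (-0.33, adjusted p = 2.23e-06). STEAP4, a metalloreductase induced by androgen, was at 600.1, 429.7 and 569 and 166, 134 and 142 and was lower (log2 fold change -1.85, SE 0.13, adjusted p = 3.61e-07). FOLH1, which encodes prostate-specific membrane antigen, was at 1661, 1742 and 1560.4 and 774, 798 and 885 and was lower (log2 fold change -1.01, SE 0.11, adjusted p = 1.57e-05). Of the pioneer factors, FOXA1 was slightly higher in VCaP-CT, at 22668, 23494 and 23184 against 18355, 16941 and 19022 (log2 fold change 0.35, SE 0.068, adjusted p = 0.00124, but 0.0283 in a fit of the 6 libraries alone), and HOXB13 overlapped between the lines, at 15618, 14924 and 14863 against 13669, 15856 and 14632 (log2 fold change 0.04, adjusted p = 0.742).

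**Figure D2:**
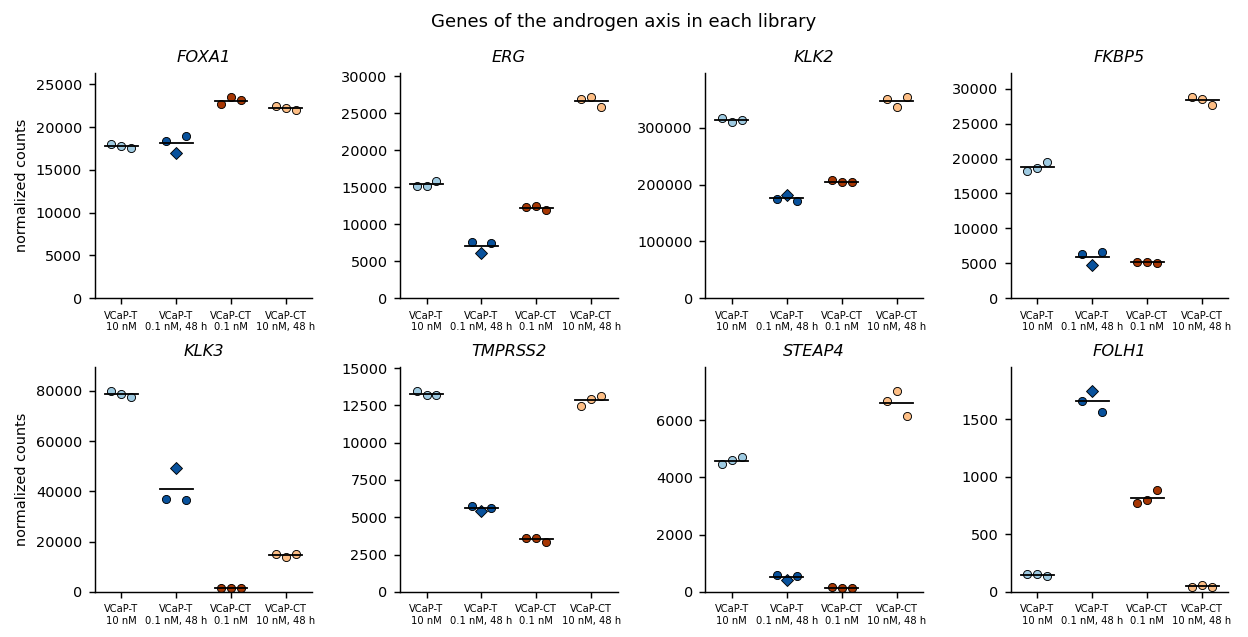
Normalized counts (y axes, linear and starting at 0) of 8 genes of the androgen axis in each library, with the 4 groups of 3 libraries along the x axes, a line at each group mean and a diamond for depleted replicate 2. KLK3 lies between 1652 and 1695 in VCaP-CT at 0.1 nM T and between 36589 and 49273 in depleted VCaP-T, FOXA1 and ERG are higher in VCaP-CT at 0.1 nM T, and KLK2 and FKBP5 are nearly level at that dose.

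The promoters of KLK3 and KLK2 are shown because the genes are neighbours with similar promoters whose log2 fold changes had opposite signs. RefSeq promoter sequence was available for both (GRCh38.p14, plus strand, chr19:50854665-50854914 for KLK3 and chr19:50873189-50873438 for KLK2, the 250 bases before the start of transcription), and capitals mark the only match to the androgen response element pattern GNACANNNNGTNC, searched on both strands.
KLK3: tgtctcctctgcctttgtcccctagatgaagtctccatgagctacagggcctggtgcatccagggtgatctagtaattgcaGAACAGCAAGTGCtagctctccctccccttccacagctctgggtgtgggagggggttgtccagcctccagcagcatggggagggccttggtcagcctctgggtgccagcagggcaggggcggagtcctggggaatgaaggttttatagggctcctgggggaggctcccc
KLK2: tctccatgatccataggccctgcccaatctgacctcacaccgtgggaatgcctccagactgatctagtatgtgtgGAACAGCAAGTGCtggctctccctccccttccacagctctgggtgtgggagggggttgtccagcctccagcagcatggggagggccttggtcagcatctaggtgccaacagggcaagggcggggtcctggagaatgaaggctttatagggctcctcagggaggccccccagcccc
Both held the same 13 letters, GAACAGCAAGTGC, at 169 bases before the start in KLK3 and 175 in KLK2, and in KLK3 the match overlaps its only AGAACA. Over the 300 bases from 250 before to 50 after the start, 245 of 309 aligned positions were identical (79.3%). The pattern was in 2.13% of all 27195 promoters of the table, in 1.78% of the 12037 promoters of genes tested, in 1.61% of those called higher and in 2.25% of those called lower. A match describes these letters and not a site that was shown to be bound.

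Among 45 measured androgen-induced genes, 15 were higher in VCaP-CT and 10 lower at an adjusted p under 0.01 (13% and 16.4% of all genes), with a median log2 fold change of 0.18. Without replicate 2 the counts were 22 and 13. The higher members included PMEPA1, a feedback inhibitor of TGF-beta signalling (log2 fold change 1.01 ± 0.064), TRPM8, a cold-sensing cation channel (log2 fold change 0.96 ± 0.072), and HERC3, a ubiquitin ligase (log2 fold change 1.92 ± 0.16). On the lower side, besides KLK3 and STEAP4, stood HPGD, the enzyme that inactivates prostaglandins, at 32862, 40211 and 34495 in depleted VCaP-T and 1296, 1395 and 1498 in VCaP-CT (log2 fold change -4.68, SE 0.11, adjusted p = 3.86e-11), and KRT19, a simple epithelial keratin (log2 fold change -2.91 ± 0.22). Of 21 measured androgen-repressed genes, 3 were higher and 12 lower, with a median of -1.01 (-0.97 without replicate 2), against -0.024 over all genes tested. The list was chosen with earlier results of these data known, so its direction is given as a description. Its summed level did not separate the lines, at 74270 to 82550 in depleted VCaP-T and 76730 to 78580 in VCaP-CT. At 10 nM T the median of the list was -0.047. TMEFF2, a transmembrane protein with follistatin domains, was at 6999, 9718 and 7343 in depleted VCaP-T and 360.3, 289 and 325 in VCaP-CT (log2 fold change -4.63, SE 0.15, adjusted p = 6.43e-10). IGFBP3, a binding protein that limits insulin-like growth factors, was lower as well (log2 fold change -1.42 ± 0.081). BCHE, the plasma cholinesterase, went the other way, with 1 count over the 3 depleted libraries and 511 over the 3 VCaP-CT libraries, a ratio of 472 after scaling (95% exact interval 84.3 to 18682, which covers counting error only). Its fitted log2 fold change, which depends on a prior count at such low levels, was 8.43 with all libraries and 10.29 without depleted replicate 1. ST7, a candidate tumour suppressor on chromosome 7 whose exons overlap other genes in part, was higher too (log2 fold change 1.01 ± 0.079).

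Of 30 measured nuclear receptors and cofactors, 6 were higher and 5 lower, close to the shares of all genes (13% and 16.4%), and 10 and 8 without replicate 2. GATA2, a pioneer factor at androgen-driven enhancers, was at 5526, 6189 and 5745 in depleted VCaP-T and 14452, 14032 and 13635 in VCaP-CT (log2 fold change 1.27, SE 0.10, adjusted p = 6.91e-07). PPARG, the fat-cell receptor, was at 355, 498 and 349.6 in depleted VCaP-T and 9.41, 10.4 and 9.02 in VCaP-CT (log2 fold change -5.36, SE 0.26, adjusted p = 1.24e-08). NR3C1, the glucocorticoid receptor, was at 795, 547 and 776 in depleted VCaP-T and only 38.5, 60.6 and 49.1 in VCaP-CT (log2 fold change -3.84, SE 0.18, adjusted p = 1.18e-08). The coactivator of mitochondrial biogenesis PPARGC1A was lower (log2 fold change -3.09 ± 0.23), and so was the bile acid receptor NR1H4 (log2 fold change -4.47 ± 0.36).

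Genes of androgen synthesis and inactivation were lower more often than higher, with 13 of 26 measured members lower and 3 higher (median -1.05, and -0.99 without replicate 2, with 14 and 5). The summed level of the list overlapped, at 18140 to 22750 in depleted VCaP-T and 18060 to 18630 in VCaP-CT. At 10 nM T the list had 8 members lower and 7 higher (median -0.094). AKR1C3, which makes T from androstenedione, was at 547, 1042 and 592 in depleted VCaP-T and 58.2, 71 and 62.1 in VCaP-CT (log2 fold change -3.51, SE 0.24, adjusted p = 3.1e-07). SRD5A1, the 5-alpha-reductase that makes dihydrotestosterone, was at 1918, 2008 and 1919 and 846, 894 and 874 (log2 fold change -1.16, SE 0.069, adjusted p = 8.64e-08). AKR1C3 and SRD5A1 were thus both lower at the transcript level. UGT2B15 and UGT2B17, which inactivate androgens by adding glucuronic acid, were lower too, with log2 fold changes of -1.80 (adjusted p = 0.00156) and -2.51 (adjusted p = 0.000567), although UGT2B15 lost the threshold without VCaP-CT replicate 1 (adjusted p = 0.0108). The 3 members that were higher, HSD17B6, HSD17B12 and HSD17B4, had log2 fold changes of 0.65, 0.43 and 0.27, and each of them passed only with all libraries or without depleted replicate 2. With any other library of the comparison left out, their adjusted p lay between 0.0114 and 0.0368.

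The largest differences were genes that were at or near 0 counts in one line and clearly measured in the other. In 95 genes called lower and 43 called higher, no library of the lower group had more than 3 counts. CEACAM5, the carcinoembryonic antigen, had 676 counts over the depleted VCaP-T libraries and 0 over VCaP-CT, which makes it at least 244-fold lower (against a floor of 3 counts over the group). CEACAM6, an adhesion molecule of the same family on chromosome 19, had 2414 counts against 3, a ratio of 871 (interval 298 to 4227). Its fitted log2 fold change of -9.57 became -8.98 without VCaP-CT replicate 1 and -10.45 without VCaP-CT replicate 3. DLGAP1, a postsynaptic scaffold protein, had 2327 against 5, a ratio of 504 (216 to 1553). SNAP25, a membrane fusion protein of synaptic vesicles, had 2136 against 7, a ratio of 330 (160 to 823). CPLX2, complexin 2, another protein of the vesicle fusion machinery, was at 4386, 3528 and 5016 normalized counts in depleted VCaP-T and 6.85, 4.73 and 9.02 in VCaP-CT (log2 fold change -9.28, SE 0.23, adjusted p = 7.09e-11), and AMER3, a regulator of WNT signalling, was at 1302, 979 and 1262 and 1.71, 4.73 and 5.01 (log2 fold change -8.26, SE 0.24, adjusted p = 2.05e-10).

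In the other direction, ADAMTSL1, a secreted matrix protein related to the ADAMTS proteases, was at 11.7, 9.88 and 14.4 in depleted VCaP-T and 1308, 1153 and 1230.2 in VCaP-CT (log2 fold change 6.66, SE 0.20, adjusted p = 3.22e-10). GPC6, a cell-surface proteoglycan, was at 9.18, 6.17 and 7.22 and 659, 796 and 779 (log2 fold change 6.57, SE 0.27, adjusted p = 4.68e-09), and DOCK10, an activator of CDC42 and RAC GTPases, at 23.4, 7.41 and 23.7 and 734, 847 and 765 (log2 fold change 5.36, SE 0.24, adjusted p = 7.9e-09). None of these groups overlapped. The genes with the smallest p-values among those higher in VCaP-CT included PCAT1, a long noncoding RNA raised in many prostate cancers, at 14067, 14046 and 13736 against 819, 805 and 812 (log2 fold change 4.10, SE 0.074, adjusted p = 1.81e-11), ADAMTS3, the protease that processes procollagen and VEGFC (log2 fold change 4.88 ± 0.10), INHBA, the activin A subunit (log2 fold change 4.60 ± 0.15), and the collagen-modifying enzyme P3H2 (log2 fold change 4.28 ± 0.15). PPP3CA, the catalytic subunit of calcineurin, and BBS4, a protein of the ciliary BBSome, were abundant and higher, with log2 fold changes of 1.94 (adjusted p = 1.42e-09) and 2.06 (adjusted p = 1.16e-09). On the lower side, the smallest p-values included CHGB, KCNH6, a potassium channel (log2 fold change -4.57 ± 0.11), TNFRSF19, a receptor of the tumour necrosis factor family (log2 fold change -4.70 ± 0.10), GALNT12, an enzyme that starts mucin-type glycosylation (log2 fold change -3.73 ± 0.071), and SCIN, an actin-severing protein (log2 fold change -3.08 ± 0.075).

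The promoters of called genes held fewer CG dinucleotides than those of all genes tested. Over 300 bases, the median was 20 CG in 436 promoters of genes called higher and 21 in 1111 of genes called lower, against 26 in all 12037 promoters matched. Promoters with fewer than 10 CG made up 29.4% and 29.1%, against 15.2%, and among genes past 3 on the log2 scale 45% of 60 and 44% of 225. The TATA box TATAAA (both strands) was in 11.5% and 10.4% against 6.24%. The RefSeq promoters (GRCh38.p14) of CEACAM6, nearly silent in VCaP-CT, and of ADAMTSL1 and DOCK10, low in depleted VCaP-T, are shown to illustrate the range, with CG in capitals, as the 250 bases before the start at chr19:41755280-41755529 (plus strand, CEACAM6), chr9:18473903-18474152 (plus strand, ADAMTSL1) and chr2:225042469-225042718 (minus strand, DOCK10).
CEACAM6: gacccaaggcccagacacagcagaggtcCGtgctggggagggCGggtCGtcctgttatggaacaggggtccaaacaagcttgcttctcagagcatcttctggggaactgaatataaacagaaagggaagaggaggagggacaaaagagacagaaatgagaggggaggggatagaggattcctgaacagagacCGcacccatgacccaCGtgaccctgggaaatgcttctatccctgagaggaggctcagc
ADAMTSL1: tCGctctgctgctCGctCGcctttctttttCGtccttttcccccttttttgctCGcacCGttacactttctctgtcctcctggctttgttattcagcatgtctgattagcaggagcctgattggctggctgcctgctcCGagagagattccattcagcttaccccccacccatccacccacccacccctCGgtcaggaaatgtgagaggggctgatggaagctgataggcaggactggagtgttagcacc
DOCK10: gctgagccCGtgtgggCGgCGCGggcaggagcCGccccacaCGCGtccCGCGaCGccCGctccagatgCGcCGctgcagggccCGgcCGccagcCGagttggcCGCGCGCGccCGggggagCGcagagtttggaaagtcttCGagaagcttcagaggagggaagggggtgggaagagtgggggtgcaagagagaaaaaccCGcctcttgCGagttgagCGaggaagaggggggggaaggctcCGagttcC
The CEACAM6 stretch holds 5 CG, that of ADAMTSL1 8 and that of DOCK10 27, so genes with near-complete differences had promoters of both kinds. DNA methylation was not measured in these libraries.

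Neuroendocrine and gastrointestinal genes were mostly lower in VCaP-CT. Of 20 measured neuroendocrine markers, 13 were lower in VCaP-CT and 2 higher, with a median of -2.11 with and without replicate 2. CHGB, chromogranin B of secretory granules, was at 4111, 4636 and 4132 in depleted VCaP-T and 24.8, 33.1 and 24 in VCaP-CT (log2 fold change -7.29, SE 0.15, adjusted p = 2.06e-11). The granule protein SCG3, secretogranin III, was at 3172, 3469.9 and 3279.6 and 151, 158 and 157 (log2 fold change -4.41, SE 0.12, adjusted p = 1.54e-10). DDC, the decarboxylase that makes dopamine and serotonin, was lower as well (log2 fold change -4.98 ± 0.14). The list's members do not all serve one cell type: ENO2, a glycolytic enzyme also used as a neuronal marker, was higher (log2 fold change 1.23 ± 0.11), and the regulator NEUROD1 and the marker CHGA did not pass the filter on low counts. The summed level of the list was 30510 to 39260 in depleted VCaP-T and 6873 to 7161 in VCaP-CT.

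Of 26 measured gastrointestinal lineage genes, 21 were lower and 2 higher (median -2.32, and -2.12 with 23 lower and 3 higher without replicate 2, and 1 or 2 higher with 1 of the other libraries left out). The list held 40 genes, and HNF4A, CDX1, FOXA2 and VIL1 were among those that did not pass the filter on low counts. HNF4G, a nuclear receptor of gut and liver epithelium, was at 633, 505 and 579.6 in depleted VCaP-T and 18.8, 15.1 and 15 in VCaP-CT (log2 fold change -5.12, SE 0.22, adjusted p = 6.22e-09). CDH17, the liver-intestine cadherin, was at 1345, 993 and 1221 and 49.6, 61.5 and 48.1 (log2 fold change -4.48, SE 0.17, adjusted p = 2.43e-09). REG4, a secreted lectin of enteroendocrine cells, was lower (log2 fold change -5.93 ± 0.14). SI, the sucrase-isomaltase of the intestinal brush border, was at 5576, 5711 and 5502 against 4208, 2623 and 4204 and passed with all libraries (log2 fold change 0.60, SE 0.15, adjusted p = 0.00647) but not without any 1 of the VCaP-CT libraries. Its adjusted p was then between 0.0187 and 0.0228.

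Genes of cholesterol synthesis were more often higher than lower in VCaP-CT. Of 30 measured genes of synthesis and uptake, 15 were higher and 1 lower (median 0.45), 23 and 1 without replicate 2 (median 0.59), and between 9 and 13 were higher when any other library of the comparison was left out. SQLE, squalene epoxidase, was at 3232, 3725 and 3188 in depleted VCaP-T and 6649, 6999 and 6972 in VCaP-CT (log2 fold change 1.02, SE 0.079, adjusted p = 8.54e-07). Higher as well were the synthase HMGCS1 (log2 fold change 1.02 ± 0.089) and the sterol oxidase MSMO1 (log2 fold change 1.29 ± 0.10). Fatty acid and lipid storage genes had no common direction, with 7 higher, 8 lower and a median of -0.02 (10 and 10 without replicate 2, and 3 to 6 higher with 1 of the other libraries left out). The elongase ELOVL5 was higher (log2 fold change 0.50 ± 0.065), whereas ACSL5, an acyl-CoA synthetase, at 15709, 15548 and 15819 and 6718, 6825 and 6593 (log2 fold change -1.23, SE 0.064, adjusted p = 2.7e-08), and the lipid droplet protein PLIN2 (log2 fold change -1.44 ± 0.15) were lower.

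Glucose uptake and glycolysis also had both directions, with 6 higher and 8 lower of 30 (5 to 8 lower when 1 library other than depleted replicate 2 was left out). The abundant enzymes GAPDH (log2 fold change 0.58 ± 0.078) and LDHA (log2 fold change 0.70 ± 0.089), the latter making lactate, were higher. The platelet-type phosphofructokinase PFKP (log2 fold change -0.99 ± 0.11), the glucose transporter SLC2A10 (log2 fold change -1.13 ± 0.14) and the lactate exporter SLC16A3 (log2 fold change -1.21 ± 0.17) were lower.

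Mitotic genes were more often higher in VCaP-CT, with 14 of 37 higher and 3 lower (median 0.32), and 25 and 4 without replicate 2. With 1 of the other libraries left out, 10 to 13 were higher and 0 to 3 lower. KIF20A, a kinesin of the cleavage furrow, was at 7559, 5747 and 7624 in depleted VCaP-T and 13671, 14361 and 13297 in VCaP-CT (log2 fold change 0.98, SE 0.10, adjusted p = 9.42e-06). CDC25C, the phosphatase that triggers mitosis (log2 fold change 0.81 ± 0.089), PLK1, a mitotic kinase (log2 fold change 0.66 ± 0.079), and CCNF, cyclin F (log2 fold change 0.67 ± 0.077), were higher as well. Of 38 genes of S phase, 3 were higher and 8 lower (median -0.11), near the shares of all genes, and 10 and 12 without replicate 2. With 1 of the other libraries left out, 2 were higher and 5 to 9 lower. RRM2, the ribonucleotide reductase subunit of S phase, was lower (log2 fold change -1.16 ± 0.10), as were CDK6 (log2 fold change -2.05 ± 0.21) and cyclin E1, CCNE1 (log2 fold change -0.95 ± 0.15), while POLA1, the primase polymerase, was higher (log2 fold change 0.71 ± 0.13, with an adjusted p of 0.0222 in a fit of the 6 libraries alone). MKI67, the proliferation antigen, was at 17607, 5926 and 17922 in depleted VCaP-T and 16364, 16402 and 16623 in VCaP-CT. Its low value in replicate 2 set the sign, with a log2 fold change of 0.25 (adjusted p = 0.516) with that library and -0.11 (0.0342) without it, so no difference in MKI67 was shown.

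Growth arrest genes differed in both directions, with 4 of 28 measured higher and 9 lower (median -0.40), and 4 and 14 without replicate 2. CDKN1B, which encodes the cyclin-dependent kinase inhibitor p27, was at 1091, 1590.5 and 1153 in depleted VCaP-T and 2737, 2769.7 and 2693 in VCaP-CT (log2 fold change 1.10, SE 0.12, adjusted p = 1.44e-05). The p53-induced TP53INP1 was higher as well (log2 fold change 1.14 ± 0.10). CDKN2A, the locus of p16 and p14ARF, was at 352, 662 and 345 and 167, 149.6 and 148 (log2 fold change -1.54, SE 0.22, adjusted p = 0.000154), and CDKN1A, p21, was slightly lower (log2 fold change -0.48 ± 0.089, with an adjusted p of 0.0164 in a fit of the 6 libraries alone). The kinase inhibitors of the list thus differed in opposite directions. Among apoptosis regulators, 6 of 25 were higher and 5 lower, and 8 and 8 without replicate 2. BCL2, which blocks apoptosis, was at 46.7, 51.9 and 45.4 and 149.7, 209 and 202 (log2 fold change 1.96, SE 0.16, adjusted p = 1.29e-06), and its antagonists BAK1 (log2 fold change 0.96 ± 0.083) and BCL2L11 (log2 fold change 0.70 ± 0.084) were higher too. BAX, another such antagonist, was lower (log2 fold change -0.89 ± 0.17, with an adjusted p of 0.0243 in a fit of the 6 libraries alone). With 1 library other than depleted replicate 2 left out, 3 or 4 of this list were lower.

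Except for antigen presentation, lists of stress and innate immune genes had more lower than higher members, although many members did not pass with all libraries. All genes tested leaned the same way, with 13% higher and 16.4% lower (23.2% and 24.4% without replicate 2). Of 25 measured genes of the unfolded protein response and secretory folding, 9 were lower and none higher (median -0.35), and without replicate 2, 14 were lower and 3 higher. DNAJC3, a co-chaperone of the endoplasmic reticulum, was at 1869, 1781 and 2048 in depleted VCaP-T and 762, 768 and 825 in VCaP-CT (log2 fold change -1.27, SE 0.083, adjusted p = 2.04e-07). The disulfide isomerases PDIA4 (log2 fold change -0.95 ± 0.071) and PDIA6 (log2 fold change -0.83 ± 0.063) and the calcium-binding chaperone CALR (log2 fold change -0.74 ± 0.078) were lower as well. In the integrated stress response, 6 of 22 were lower and 2 higher, and 8 and 4 without replicate 2. With 1 of the other libraries left out, 4 to 7 were lower and 1 or 2 higher. DDIT3, the stress factor CHOP, was lower (log2 fold change -1.37 ± 0.18), and GDF15, a secreted stress cytokine, was at 5324, 9698 and 5316 and 1057, 1132 and 1021 (log2 fold change -2.66, SE 0.21, adjusted p = 1.2e-06).

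Of 32 measured interferon-stimulated genes, 13 were lower and 3 higher (median -0.57, and 1 to 3 higher with 1 of the other libraries left out). OAS1, a sensor of double-stranded RNA, was at 661, 601 and 637 and 247, 212 and 216 (log2 fold change -1.49, SE 0.094, adjusted p = 1.45e-07). IRF8, an interferon regulatory factor (log2 fold change -3.38 ± 0.17), ISG20, an exonuclease (log2 fold change -3.06 ± 0.18), and UBE2L6, the enzyme that conjugates ISG15 (log2 fold change -1.98 ± 0.19), were lower, and SAMHD1, which degrades deoxynucleotides, was higher (log2 fold change 0.59 ± 0.10, with an adjusted p of 0.0174 in a fit of the 6 libraries alone). Of 24 measured NF-kappaB genes, 12 were lower and none higher (15 and none without replicate 2). RELB, the subunit of the noncanonical pathway, was at 731, 1246 and 781 and 241, 217 and 188 (log2 fold change -2.09, SE 0.21, adjusted p = 9.71e-06). NFKBIZ, an inducible nuclear cofactor (log2 fold change -1.37 ± 0.17), and the kinase MAP3K8 (log2 fold change -1.09 ± 0.13) were lower. In the cytokine and JAK-STAT list 10 of 32 were lower and 4 higher. STAT6, the factor of interleukin 4 signalling, was at 319, 188 and 278 and 1787, 1728 and 1721 and higher (log2 fold change 2.73, SE 0.15, adjusted p = 4.28e-08). STAT5A, which mediates prolactin and growth hormone signals, was lower (log2 fold change -2.06 ± 0.13). Only 8 of 28 listed genes of antigen presentation passed the filter on low counts. Of those, 1 was higher and 1 lower. TAPBPL was higher (log2 fold change 1.26 ± 0.14) and B2M lower (log2 fold change -0.86 ± 0.21), B2M losing the threshold without any 1 of the VCaP-CT libraries (adjusted p from 0.018 to 0.0218).

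Collagens were lower more often than higher, with 9 of 23 lower and 4 higher (median -0.56). COL1A1, the main fibrillar collagen chain, was at 402, 299 and 443 in depleted VCaP-T and 46.2, 48.3 and 52.1 in VCaP-CT (log2 fold change -2.97, SE 0.19, adjusted p = 1.75e-07). COL4A6, of basement membranes, was lower (log2 fold change -2.23 ± 0.21), and COL5A2, which joins type I fibrils, was at 65.9, 40.7 and 52.6 and 493, 592 and 519.9 and higher (log2 fold change 3.31, SE 0.16, adjusted p = 1.39e-08). Of 31 measured matrix glycoproteins and proteoglycans, 13 were lower and 7 higher. THBS1, thrombospondin 1, an inhibitor of vessel growth, was at 24680.0, 15984 and 23120.1 and 6319, 6279 and 6272 (log2 fold change -1.76, SE 0.13, adjusted p = 5.78e-07). The laminin chains LAMA1 (log2 fold change -2.86 ± 0.22) and LAMB3 (log2 fold change -1.92 ± 0.17) were lower, while the calcification inhibitor MGP (log2 fold change 1.80 ± 0.20) and the proteoglycan lumican, LUM (log2 fold change 1.57 ± 0.15), were higher. Among 23 measured metalloproteases and inhibitors 11 were lower and 2 higher. The membrane-type protease MMP24 (log2 fold change -3.89 ± 0.28) and stromelysin 2, MMP10 (log2 fold change -1.16 ± 0.093), were lower, ADAMTSL1 being one of the members that were higher.

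Of 31 measured adhesion molecules of the immunoglobulin family, 16 were lower and 5 higher (2 to 4 higher when 1 library other than depleted replicate 2 was left out). NRCAM, a neuronal adhesion molecule, was at 5348, 3389.6 and 5120.5 and 258, 285 and 251 (log2 fold change -4.12, SE 0.17, adjusted p = 3.55e-09), and CEACAM19 was lower (log2 fold change -2.49 ± 0.12), whereas ALCAM, at 1861, 1639 and 1863 and 4586, 4763 and 4882, was higher (log2 fold change 1.41, SE 0.081, adjusted p = 6.3e-08). Among cadherins, catenins and factors of the epithelial-mesenchymal transition, 8 of 22 were lower and 1 higher, and 13 and 2 without replicate 2. P-cadherin, CDH3, a marker of basal epithelium, was at 302, 315 and 312 and 18.8, 12.3 and 19 (log2 fold change -4.20, SE 0.18, adjusted p = 4.9e-09), and CDH7 was the member that was higher (log2 fold change 1.34 ± 0.11). Of 7 measured keratins 4 were lower, among them the luminal pair KRT8 (log2 fold change -0.88 ± 0.17) and KRT18 (log2 fold change -0.92 ± 0.16), whose adjusted p was 0.0165 and 0.0179 in a fit of the 6 libraries alone. KRT15, a basal keratin, had 121 counts against 5 (ratio 26.2, interval 10.9 to 82.1). Basal markers gave 5 lower of 10 measured. ITGB4, the integrin of hemidesmosomes, was at 317, 168 and 271 and 24.8, 17 and 24 (log2 fold change -3.52, SE 0.25, adjusted p = 5.15e-07). The summed level of the basal list was 6193 to 9955 in depleted VCaP-T and 7114 to 7190 in VCaP-CT, so it did not separate the lines.

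Of 40 measured WNT ligands, receptors and feedback genes, 15 were lower and 7 higher. WNT5A, a ligand of the noncanonical pathway, was at 78.5, 54.3 and 92.8 in depleted VCaP-T and 572, 551 and 582 in VCaP-CT (log2 fold change 2.91, SE 0.15, adjusted p = 3.1e-08). WNT5B (log2 fold change 0.90 ± 0.11) and the receptor FZD4 (log2 fold change 1.40 ± 0.13) were higher, and so was WLS, the carrier that brings WNT proteins to the cell surface (log2 fold change 2.19 ± 0.076). LGR5, the R-spondin receptor and stem cell marker (log2 fold change -1.59 ± 0.12), the receptor FZD6 (log2 fold change -0.88 ± 0.089) and the secreted inhibitor SFRP1 (log2 fold change -0.94 ± 0.10) were lower. In the hedgehog pathway 4 of 13 were higher and 3 lower, 4 and 6 without replicate 2, and 2 to 4 higher with 1 of the other libraries left out. GLI3, the factor that mainly acts as a repressor, was at 109, 46.9 and 110.4 and 527, 538 and 553 and higher (log2 fold change 2.58, SE 0.22, adjusted p = 2.15e-06), and GLI2, the main activator (log2 fold change -2.14 ± 0.29), was lower with the ligand SHH (log2 fold change -3.75 ± 0.17). In BMP and TGF-beta signalling 6 of 35 were higher and 10 lower. The ligand BMP7 was higher (log2 fold change 1.20 ± 0.081), BMP2 lower (log2 fold change -2.90 ± 0.13), and TGFBR3, the type III receptor, lower (log2 fold change -1.22 ± 0.14).

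Growth factor receptors and ligands included 6 higher and 9 lower of 27 measured, and 8 and 15 without replicate 2. ERBB3, the neuregulin receptor, was at 9640.5, 6672 and 9222 in depleted VCaP-T and 2473, 2553 and 2526 in VCaP-CT (log2 fold change -1.76, SE 0.12, adjusted p = 2.21e-07). FGFR3 (log2 fold change 1.28 ± 0.12) was higher, and so was IGFBP2, a binding protein of insulin-like growth factors, at 10155, 9709 and 9404 against 2353, 4822 and 2425 (log2 fold change 1.61, SE 0.24, adjusted p = 0.000188, and 2.03 without replicate 2). Of the ligands of the EGF receptor, HBEGF was higher (log2 fold change 1.20 ± 0.092) and TGFA lower (log2 fold change -1.70 ± 0.075), so these 2 ligands differed in opposite directions. Axon guidance was one of the lists with more higher than lower members, 11 and 3 of 37 (14 and 6 without replicate 2, and 6 to 11 higher with 1 library other than depleted replicate 2 left out). EFNB2, an ephrin ligand (log2 fold change 1.79 ± 0.11), and NRP1, a receptor of semaphorins and VEGF (log2 fold change 0.97 ± 0.10), were higher, and the ephrin receptor EPHA7 was lower (log2 fold change -2.09 ± 0.16). Among vessel signals, VEGFA, the main angiogenic factor, was at 1374, 1188 and 1394 and 1907, 2137 and 2008 (log2 fold change 0.61, SE 0.079, adjusted p = 6.25e-05), and APLN, apelin, was lower (log2 fold change -0.87 ± 0.088).

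NRF2 targets and glutathione enzymes gave 5 higher and 10 lower of 28, 9 and 10 without replicate 2, and 3 to 5 higher with 1 of the other libraries left out. GPX3, the secreted glutathione peroxidase, was at 35067, 53639.8 and 37321 and 2810.2, 2613 and 2625 (log2 fold change -3.97, SE 0.15, adjusted p = 1.8e-09). GPX2 (log2 fold change -4.57 ± 0.13) and NQO1, a quinone reductase (log2 fold change -2.78 ± 0.15), were lower. In the nuclear-encoded respiratory chain 1 of 42 was higher and 3 lower (median -0.26), but without replicate 2 the counts were 16 and 11 and the median 0.14. With 1 of the other libraries left out, 0 were higher and 0 to 9 lower. COX5B, a subunit of cytochrome oxidase with an exon length of 1441 bases, was at 2024, 5778 and 2339 in depleted VCaP-T and 1314, 1335 and 1260.3 in VCaP-CT, and its log2 fold change of -1.37 became -0.74 without that library, in which the shortest genes were high. COX5B also lost the threshold without any 1 of the VCaP-CT libraries (adjusted p from 0.0132 to 0.0152). Of the 13 protein-coding genes of the mitochondrial genome 1 was higher and 3 lower, 3 and 7 without replicate 2, and 1 to 3 lower with 1 of the other libraries left out. MT-ND6, the only one encoded on the light strand, was lower (log2 fold change -1.04 ± 0.15), and the counting did not use strand.

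Of 23 measured HOX genes, 9 were lower and 1 higher (5 to 8 lower and 0 higher with 1 library other than depleted replicate 2 left out). HOXC12, a gene of the posterior group, was at 81.5 to 129 in depleted VCaP-T and 3.42, 6.63 and 4.01 in VCaP-CT (log2 fold change -4.52, SE 0.28, adjusted p = 1.39e-07), and HOXB7 (log2 fold change -3.15 ± 0.36) and HOXC6 (log2 fold change -0.77 ± 0.075) were lower. Among genes of DNA methylation and Polycomb, 4 of 23 were higher and 2 lower, 6 and 4 without replicate 2, and 2 to 5 higher and 1 or 2 lower with 1 of the other libraries left out. EZH2, the Polycomb methyltransferase, was at 2520.5, 2828 and 2574 and 1584, 1672 and 1607 (log2 fold change -0.70, SE 0.071, adjusted p = 9.48e-06), and KDM6A, a demethylase that removes its mark, at 2281, 1509 and 2189 and 4626, 4699.8 and 4558 (log2 fold change 1.21, SE 0.12, adjusted p = 1.05e-05). The writer and the eraser of this mark thus differed in opposite directions. Of 16 measured long noncoding RNAs of prostate cancer, 5 were higher and 2 lower (9 and 3 without replicate 2, and 4 to 7 higher and 1 or 2 lower with 1 of the other libraries left out). Besides PCAT1, PCAT14 was at 10774, 9744 and 10873 and 31938, 32065 and 33482 (log2 fold change 1.63, SE 0.075, adjusted p = 9.24e-09), and NEAT1, the scaffold of paraspeckles, was higher (log2 fold change 1.00 ± 0.10). Germ cell genes gave 3 higher and 3 lower of 14. MAGEA3 was at 447, 729 and 486 and 26.5, 28.4 and 33.1 (log2 fold change -4.23, SE 0.20, adjusted p = 1.41e-08) and MAGEA6 followed (log2 fold change -4.70 ± 0.30). The MAGEA3 and MAGEA6 copies are nearly identical, so the split of reads between them is uncertain. ASZ1, a germ cell protein of the piRNA pathway, was at 49.2, 91.4 and 57.8 and 1514, 1551 and 1513 (log2 fold change 4.55, SE 0.19, adjusted p = 5.11e-09), and MAGEC2 was higher (log2 fold change 1.07 ± 0.14).

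Markers of other organs or cell types were partly measured. Of 18 liver plasma protein genes that passed the filter, 6 were higher and 7 lower (3 or 4 higher with 1 library other than depleted replicate 2 left out), with VTN, vitronectin, higher (log2 fold change 1.68 ± 0.19) and F5, coagulation factor V, lower (log2 fold change -2.12 ± 0.23). In the luminal list 5 of 20 were higher and 9 lower, 9 and 9 without replicate 2, and 3 or 4 higher with 1 of the other libraries left out. MSMB, a major protein of prostatic secretion, was at 279.6, 609 and 282 and 20.5, 18.9 and 24 (log2 fold change -4.19, SE 0.34, adjusted p = 1.42e-06), DPP4, a surface peptidase, at 1014, 857 and 1093 and 2777, 2853 and 2910.2 (log2 fold change 1.53, SE 0.092, adjusted p = 1.04e-07), and SLC45A3, prostein, was higher (log2 fold change 0.85 ± 0.088). Of 6 measured fibroblast and muscle markers 2 were higher and 3 lower, and their sum was 1346 to 1673 in depleted VCaP-T and 1625 to 1795 in VCaP-CT. Of 7 measured endothelial markers 2 were higher and 4 lower, and their sum, 7858 to 8606 against 12400 to 12970, was carried by ERG, which the fusion expresses in these cells. The 5 blood cell markers gave 1 higher (0 with 1 library other than depleted replicate 2 left out) and 2 lower, with a sum of 2457 to 2934 against 200.4 to 207.3. That sum was carried by lysozyme, LYZ, at 2819, 2359.8 and 2623 and 121, 127 and 112 (log2 fold change -4.44, SE 0.10, adjusted p = 3.86e-11), which gastric and prostate epithelium can also express and whose exons overlap another gene in part.

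**Figure D3:**
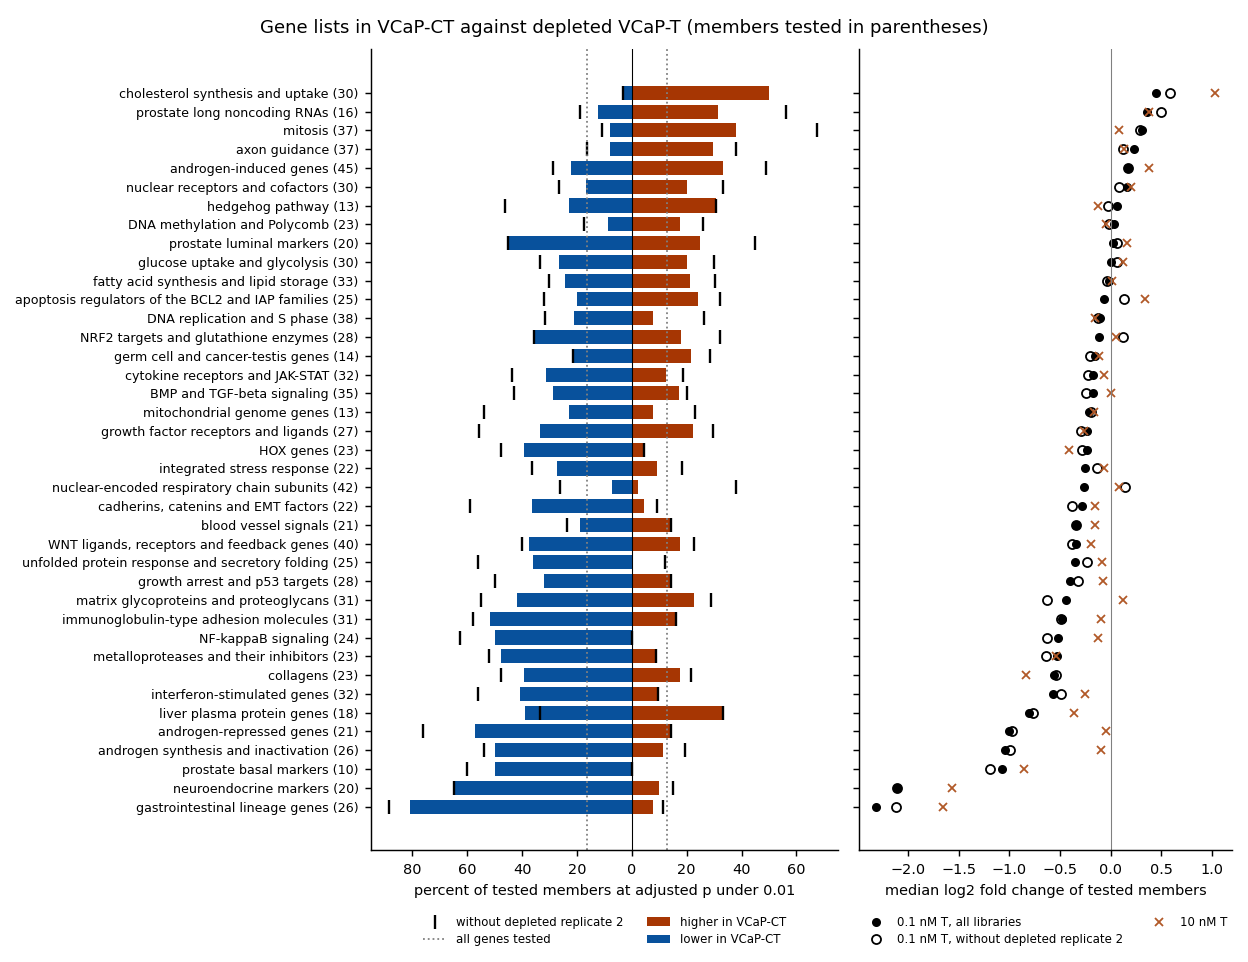
Left, percent of the tested members of each gene list that were higher (right of 0, red-brown) or lower (left of 0, blue) in VCaP-CT than in depleted VCaP-T at an adjusted p under 0.01, with ticks for the same without depleted replicate 2 and dotted lines for all genes tested (13 and 16.4%). Right, the median log2 fold change of the members at 0.1 nM T with all libraries (filled), without depleted replicate 2 (open), and at 10 nM T (cross). Cholesterol synthesis stands at the top (15 of 30 higher) and gastrointestinal lineage genes at the bottom (21 of 26 lower, median -2.32).

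At 10 nM T, in libraries that are all different from those above, the same contrast of VCaP-CT against VCaP-T called 608 genes higher (3.17%) and 1356 lower (7.08%), 10.2% in all. Of the genes called at 0.1 nM T, 348 of the higher (50.2%) and 1082 of the lower (65%) were called in the same direction at 10 nM T, which is 57.2% and 79.8% of the calls at 10 nM. A further 332 of 345 and 546 of 581 of the genes called only at 0.1 nM T had the same sign at 10 nM. The line differences at the 2 levels correlated at 0.854 over all genes tested and 0.923 over the genes called at 0.1 nM (Pearson's r across genes, given as a description, since all libraries of a line share its genome). The called genes were selected for a large difference at 0.1 nM T, which can by itself raise their correlation. CEACAM6, SNAP25, ADAMTSL1 and CHGB were far apart at both levels, with log2 fold changes at 10 nM T of -7.68, -10.09, 5.15 and -7.46. VCaP-T kept at 10 nM T had a level nearer to depleted VCaP-T than to VCaP-CT in 632 of the 693 genes called higher (91.2%) and in 1350 of the 1664 called lower (81.1%).

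**Figure D4:**
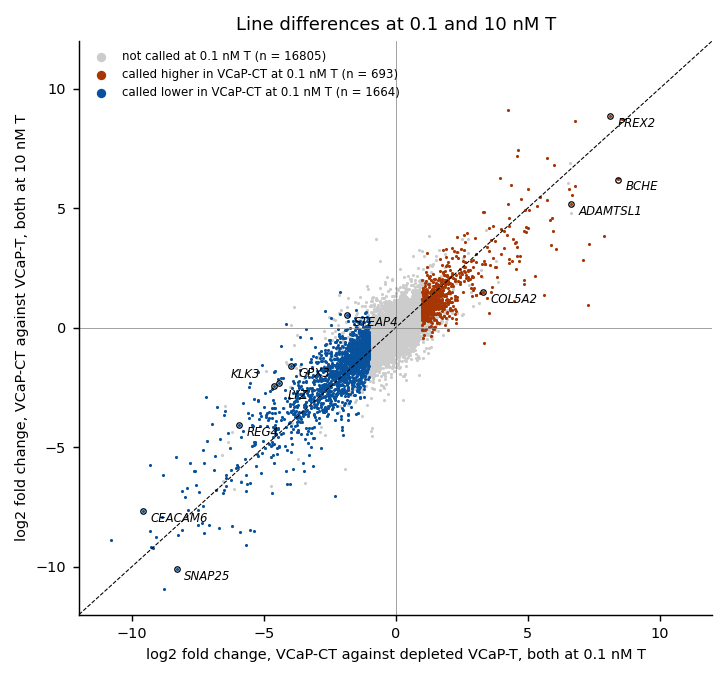
Log2 fold change of VCaP-CT against VCaP-T with both lines at 10 nM T (y axis) against that with both at 0.1 nM T (x axis), 1 point per gene tested, coloured by the call at 0.1 nM T (693 higher in red-brown, 1664 lower in blue, 16805 not called in grey), with the line of equal differences dashed. Most called genes lie near the dashed line, CEACAM6 and SNAP25 far down it and ADAMTSL1 far up it, while KLK3 and STEAP4 lie above it, nearer to or past 0 at 10 nM T.

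The difference between the line effects at the 2 hormone levels was tested directly, and was called for 108 genes (0.564%), 22 with a more positive line difference at 0.1 nM T (0.115%) and 86 with a more negative one (0.449%). Without depleted replicate 2 it was called for 234 genes (1.19%, made up of 0.336% and 0.855%), and when any 1 of the 9 libraries other than the depleted ones was left out it was called for 55 to 71. At 10 nM T the KLK3 level was 79924, 78616 and 77771 normalized counts in VCaP-T and 14876, 14005 and 15053 in VCaP-CT, so the line difference was -4.62 at the low level and -2.43 at the high level (difference -2.19, adjusted p = 2.08e-05). STEAP4 was at 4455, 4605 and 4694 and 6657, 7012 and 6148 at 10 nM T, where its line difference had the opposite sign (0.53 against -1.85, adjusted p of the difference 2.93e-05). Both androgen-induced genes were lower in VCaP-CT at 0.1 nM T, and only KLK3 remained so at 10 nM T. For LMO4, a LIM-domain transcription cofactor, the line difference was 2.26 at 0.1 nM T and 0.77 at 10 nM T (adjusted p of the difference 0.00057), and for WNT5A it was 2.91 and 1.34 (0.00237). The WNT5A difference lost the threshold in 6 of the 12 fits that each left out 1 library (replicate 1 or 2 of VCaP-T at 10 nM T, replicate 1 or 3 of VCaP-CT at either level), with adjusted p from 0.0103 to 0.0122. Besides KLK3, STEAP4 and LYZ, the smallest p-values among the more negative differences were those of SLC30A2, a zinc transporter, with line differences of -1.42 and 0.25 at 0.1 and 10 nM T, GDA, guanine deaminase, with -4.75 and -2.64, and ASB9, a subunit of ubiquitin ligases, with -3.85 and -1.58. Among the more positive ones were RAP2B, a small GTPase, with 1.82 and 0.47, and COL5A2, with 3.31 and 1.5. One gene was called in opposite directions at the 2 levels and was named after its values were seen. It is UGT2B11, a glucuronosyltransferase with close paralogs, so that its reads may be split between copies, with log2 fold changes of -2.11 at 0.1 nM T and 1.5 at 10 nM T.

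Called genes were not spread evenly over the genome. On chromosome 21, 32 of 226 genes tested were called higher (14.2%, against 3.62% of all genes), and the median log2 fold change there was 0.51 (0.49 without replicate 2, and 0.50 at 10 nM T). Chromosomes X and 4 had medians of 0.27 and 0.24, and chromosomes 17 and 2 of -0.26 and -0.18. In windows of 10 Mb with at least 15 genes tested, 36 of 292 had a median over 0.3 and 35 a median under -0.3. The lowest was on chromosome 2 from 10 to 20 Mb, with a median of -0.67 over 38 genes (-0.54 without replicate 2), and the highest with all libraries was on chromosome 18 from 60 to 70 Mb, with 0.72 over 16 genes. Without replicate 2 that window was at 0.52, and the highest was chromosome 21 from 20 to 30 Mb, at 0.62 over 25 genes (0.45 with all libraries). Chromosome 21 from 40 to 50 Mb, which holds TMPRSS2, had a median of 0.62 over 90 genes (0.59 without replicate 2), with 18 called higher and 4 lower, and the window from 30 to 40 Mb, which holds ERG, had 0.36 over 86 genes (0.46 without replicate 2). The window medians at 0.1 and 10 nM T correlated at 0.94 (Pearson's r across windows, as a description). DNA copy number was not measured in these libraries.

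**Figure D5:**
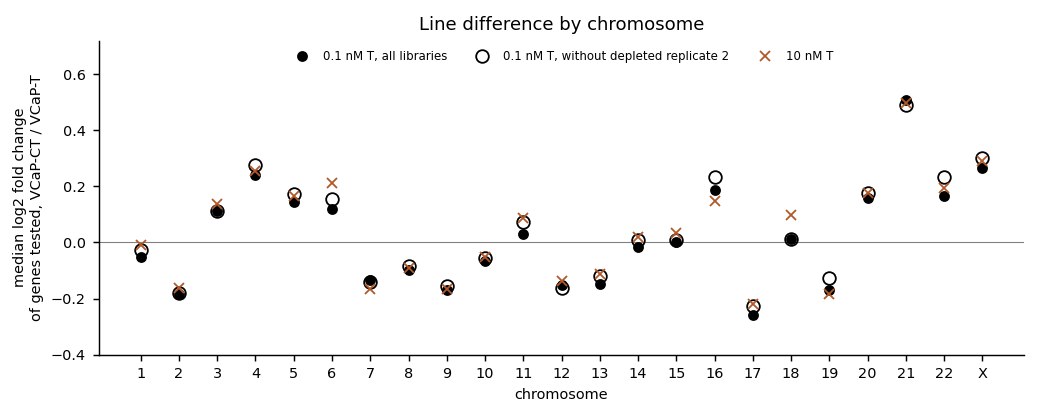
Median log2 fold change of VCaP-CT against VCaP-T over the genes tested on each chromosome (y axis) by chromosome (x axis), at 0.1 nM T with all libraries, at 0.1 nM T without depleted replicate 2, and at 10 nM T. Chromosome 21 stands highest at 0.51, 0.49 and 0.50. The mitochondrial genome is not drawn, and its median was -0.294, -0.0541 and -0.0515 in the same order.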

How the data were processed

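RNA was sequenced as 75 base read pairs on a HiSeq 3000 from TruSeq stranded polyA libraries. The deposited values used here are raw counts per gene, which the authors made by aligning to GRCh38 with STAR 2.5.4b and counting with featureCounts 1.6.2 on Gencode 28, without strand, so overlapping and antisense genes cannot be told apart. A table normalized by the authors with DESeq2 1.24.0 was not used. Genes were filtered with filterByExpr, which left 19162 of 58381, and tested with edgeR's quasi-likelihood test (edgeR 4.0.16, R 4.3.3, TMM scaling) in 1 model of all 12 libraries in 4 groups, so that the 6 libraries at 10 nM T contribute to the estimate of the spread. Benjamini-Hochberg adjustment ran over all genes tested. Depth was 30174831 to 40825204 counted fragments, and a count of 0 in a group was read as at most 3 counts. The thresholds (adjusted p 0.01, log2 fold change 1, difference of medians 13) follow the study's methods.

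The comparison, its gene lists and the named genes were chosen with earlier results of these data known. Named genes come from the largest changes and smallest p-values in each direction, up to 4 members per direction and list, a fixed set of androgen genes, and the smallest p-values of the difference between hormone levels, and UGT2B11 was named after its values were seen. Some genes that this rule names are not reported here. Alternatives were DESeq2 1.42.0, its size factors, no filter, limma 3.58.1 with library quality weights, a replicate block, fits of the 6 libraries alone, and leaving out each library. The model was also tested on simulated data for this comparison, with 40 changed genes per fold size among 19162. It called 40 genes raised 4-fold, 37 lowered 4-fold, 20 raised 2-fold, 11 lowered 2-fold and 1 raised 1.5-fold, with 2 false calls. By the adjusted p alone, 8 of those raised 1.5-fold passed. Recovery with a library shifted by exon length, like depleted replicate 2, was not tested. Promoter sequences are from RefSeq, which held 12037 of the genes tested, and biotypes are from Gencode 44.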

Additional observations from a re-analysis of the deposited data

Results flagged for a closer look

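The results here were noted because the line difference at 0.1 nM T differed from that at 10 nM T by a test of the difference itself (edgeR's quasi-likelihood interaction test). Over all genes tested, 108 were called. Of the genes named in the report, COL5A2 had a more positive difference at the low level by 1.81 on the log2 scale, LMO4 by 1.49, RAP2B by 1.36 and WNT5A by 1.57. The more negative differences were -1.66 for DDC, -1.74 for GDF15, -2.38 for GPX3, -1.30 for HPGD, -1.02 for IGFBP3, -2.19 for KLK3, -2.12 for LYZ, -1.87 for REG4 and -2.38 for STEAP4, and further -2.27 for ASB9, -2.11 for GDA and -1.67 for SLC30A2. With the replicate number as a block, the adjusted p of the difference was 0.0104 for COL5A2 and 0.013 for GDF15, above the threshold of 0.01, and 0.0002 for KLK3, STEAP4 and LYZ. With 1 library left out, GDF15 was over the threshold in each of the 9 fits that left out a library other than the depleted ones (0.0174 to 0.029), and WNT5A in 6 fits (0.0103 to 0.0122). Groups of 3 libraries were too small for a test of single outlying values.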

How the results depend on the processing

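The count of genes called at 0.1 nM T was 2357, and 1774 to 2552 under the alternatives, of which 2466 was by DESeq2 and 1774 by a fit of the 6 libraries alone. Leaving out 1 library gave 2121 to 2541. At 10 nM T the 1964 calls became 1759 to 2239, and the 1430 genes called in the same direction at both levels became 1497 by DESeq2 and 1583 without depleted replicate 2. The count of genes whose line difference changed with T moved most, from 108 to 214 by DESeq2, 172 with no filter, 393 by limma-voom with library weights, and 55 to 234 with 1 library left out, 234 being without depleted replicate 2. With the replicate block the 3 counts were 2274, 1900 and 64. The deviations of same-numbered libraries from their group means correlated between -0.424 and 0.181. In the depleted group the shift of replicate 2 also enters the deviations of replicates 1 and 3, so a shared batch could go unseen there. Whether the replicate numbers pair the libraries is therefore not settled, and the lower counts with the block stand as given. The cause of these moves was not tested.

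Of the named genes, HOXB13 went from -0.0127 (without depleted replicate 1) to 0.10 with 1 library left out, and MKI67 from -0.11 (without depleted replicate 2) to 0.48. MKI67 was at -0.10 by limma-voom and at -0.11 in a fit of the 5 libraries of the comparison other than depleted replicate 2. In a fit of the 6 libraries alone 13 named genes lost the threshold, with adjusted p from 0.0164 to 0.066 (B2M, BAX, CDKN1A, COX5B, FOXA1, HSD17B4, HSD17B6, HSD17B12, KRT8, KRT18, POLA1, SAMHD1 and SI), and with the replicate block HSD17B4, HSD17B12 and SI did. HSD17B4 also did with no filter. The median of chromosome 14 became 0.0101 without that replicate. Nearly level list medians changed sign. With 1 library left out they spanned -0.0394 to 0.0904 for fatty acid genes, -0.115 to 0.066 for glycolysis, -0.122 to 0.136 for apoptosis regulators, -0.11 to 0.11 for antigen presentation, -0.0269 to 0.274 for the hedgehog pathway, -0.0173 to 0.0605 for luminal markers, -0.202 to 0.0465 for germ cell genes, -0.0119 to 0.101 for DNA methylation and Polycomb, -0.288 to 0.122 for NRF2 targets and -0.442 to 0.139 for respiratory chain subunits. Depleted replicate 2 was the library left out at the far side of 0 for apoptosis, hedgehog, DNA methylation, NRF2 and respiratory chain genes. Limma-voom and the fit of 5 libraries gave 0.121 and 0.135 for apoptosis regulators, -0.0567 and -0.0258 for the hedgehog pathway, -0.012 and -0.0136 for DNA methylation and Polycomb, 0.0965 and 0.121 for NRF2 targets, and 0.129 and 0.137 for respiratory chain subunits. Limma-voom gave 0.112 for blood cell markers. A fit of the 6 libraries gave 0.173 for antigen presentation and 0.00989 for germ cell genes.

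The lines are 1 derivation each, with 3 libraries per group, and replicate 2 of the depleted group lowers the number of genes that pass by the adjusted p from 9348 to 5647. In the simulated data, 20 of 40 genes raised 2-fold and 11 of 40 lowered 2-fold were called. By the adjusted p alone, 34 and 21 of them passed. A 2-fold change lies at the log2 fold change threshold of 1 that a call requires. Values near 0 counts give ratios with wide intervals.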
